A study of Mus musculus with 44 samples.

Results

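Per2, Per3, Dbp and Vip are 4 genes of the mouse circadian system, and each was followed here on every array of a study of sodium craving. In the table they are named PER2, PER3, DBP and VIP, and their features were found by name, after removal of the suffix that the table adds to each gene symbol. The rule found 5 of the table's 9554 features: 1 each for Per3, Dbp and Vip, and 2 for Per2, listed as PER2g-s1 and PER2g-s2. In GRCm38.p6 the genes lie at chr1:91415977-91459351 (Per2), chr4:150997018-151044707 (Per3), chr7:45705100-45710203 (Dbp) and chr10:5639193-5647617 (Vip). The sources used here do not give the place of the 5 array features in their genes.

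The study hybridised total RNA of adult male C57/Bl6 mice to 44 arrays of 2 colours. Tissue RNA carried Cy5, and a purchased universal mouse reference RNA carried Cy3 on every array. In the hypothalamus there were 5 arrays of mice given ACTH, the hormone with which the pituitary drives adrenal steroid output, and 6 labelled ACTH gratified. The same tissue had 4 arrays of mice given furosemide, a loop diuretic that drives sodium into the urine, 4 labelled furosemide gratified, and 4 of untreated control mice. RNA of the remainder of the brain, called brain below, was hybridised on 4 ACTH, 5 ACTH gratified, 4 furosemide, 4 furosemide gratified and 4 control arrays. The labels give neither the clock time of collection nor the doses, nor which hypothalamus and brain samples came from 1 animal. Each replicate is a separate sample by its label, so a p-value here reflects how much such samples vary.

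The circadian clock of mammals is a feedback loop of transcription. CLOCK and ARNTL drive the period and cryptochrome genes, whose proteins return to the nucleus and repress that drive. Per2 encodes a core repressor of the loop, and Per3 a paralogue with a smaller part in it. Dbp encodes a transcription factor of the PAR bZIP family that CLOCK and ARNTL drive directly and that activates genes through D-box elements, those of the period genes among them. Vip encodes vasoactive intestinal peptide, with which neurons of the suprachiasmatic nucleus of the hypothalamus keep each other in step, and which a class of interneurons of the cerebral cortex also makes.

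RefSeq promoter windows, from 250 bases before to 50 bases after an annotated start, were at hand for Per3, Dbp and Vip, 3 of the 4 genes. The stretches below are shown because they hold letters of the D-box, through which Dbp and its relatives are known to activate period genes, and of the element through which cyclic AMP is known to act on Vip. Both are of GRCm38.p6, read 5′ to 3′ on the gene's own strand. Capitals mark TTATGTAA in Per3 and TGACGT in Vip.
Per3, chr4:151044766-151044915, minus strand: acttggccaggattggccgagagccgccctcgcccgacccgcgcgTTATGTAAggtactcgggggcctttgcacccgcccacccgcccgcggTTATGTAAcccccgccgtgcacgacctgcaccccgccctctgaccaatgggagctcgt
Vip, chr10:5639018-5639167, plus strand: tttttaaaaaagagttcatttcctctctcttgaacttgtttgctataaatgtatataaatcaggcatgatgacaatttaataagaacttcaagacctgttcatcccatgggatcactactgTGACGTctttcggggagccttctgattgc

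The D-box letters TTATGTAA begin 205 and 158 bases before the start of Per3, and 0.938% of 32851 promoter windows of the same length hold these letters on either strand. The letters TGACGT of the cyclic AMP response element begin 79 bases before the start of Vip and occur on either strand in 7.51% of the windows. Neither the full element TGACGTCA, which holds TGACGT and occurs in 1.79% of the windows, nor the E-box CACGTG, which occurs in 7.15%, was found in the 3 windows. None of these letters was in the Dbp window. Distances are counted to the start on which each RefSeq window was built, base 151044665 of chromosome 4 for Per3 and base 5639218 of chromosome 10 for Vip, and both lie inside the gene bounds given above.

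All values are the deposited ratios of tissue over reference RNA on the log2 scale, so that a positive value is a higher signal in the tissue than in the reference RNA. The sources used here do not name the base of the logarithm, which was taken as 2. Levels are compared between arrays for 1 feature at a time and never between features. Differences between groups were tested with limma across all 9554 features, and called where the Benjamini-Hochberg adjusted p was under 0.05. In bulk tissue, fewer cells of a type and less RNA per cell cannot be told apart.

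The sample descriptions end in 3 series of numbers. The 20 arrays of mice given ACTH carry the high-number series and none of the rest does, so that ACTH and the number series cannot be told apart against control or furosemide. Of the other 24 arrays, 13 have plain 2-digit numbers and 11 have zero-padded ones. Hypothalamus control and furosemide arrays are all 2-digit, and brain control and furosemide arrays are all zero-padded. A feature is called tied on an array where its value equals another feature's in every deposited digit. Tied features made up 20.3% to 33.5% of the high-number arrays and 2.75% to 16.1% of the others. Dbp was tied on none of the 44 arrays, Per3 on 2, Vip on 6, PER2g-s1 on 12 and PER2g-s2 on 31.

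The array labelled hypothalamus ACTH gratified replicate 6 went against its tissue label, and is called array 6 below. Oxt, the gene of the hypothalamic peptide oxytocin, read 0.15 on it, against 2.43 to 3.06 on the other 22 hypothalamus arrays and −0.15 to 0.67 on the 21 brain arrays. Avp, the vasopressin gene, read 0.47, against 2.15 to 3.05 on the other hypothalamus arrays and 0.15 to 1.19 on the brain arrays. Neurod2, a factor of cortical and hippocampal neurons, read 1.84, against 0.37 to 1.34 and 1.72 to 2.17. The mean of 14 hypothalamic marker features was 0.55 on this array, inside the brain range of 0.49 to 0.70 against 0.98 to 1.77 on the other hypothalamus arrays. Differences of the 4 genes between the hypothalamus ACTH gratified group and other groups are therefore given with this array and without it. On the other 22 hypothalamus arrays Oxt and Avp lay above every brain array.

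Dbp was lower on the ACTH and ACTH gratified arrays than on the furosemide arrays of both tissues, and it fell below control in 3 of the 4 ACTH comparisons. Of the 5 features it was the only one tied on no array. Its value in the hypothalamus was −0.16, −0.20, −0.08, −0.21 and −0.25 with ACTH. With ACTH gratified it ranged over 6 arrays from a lowest value of −0.74 through a median of −0.52 to a highest of −0.27, array 6 reading −0.58. The control arrays read 0.23, −0.32, 0.40 and 0.23. All 11 arrays of mice given ACTH were negative and 3 of the 4 control arrays positive, and control replicate 2 made the groups overlap.

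In the hypothalamus Dbp fell with ACTH gratified by 0.65 ± 0.11 (log2, SE; adjusted p = 0.000683, limma), to 0.638 of the control ratio. In this comparison 12.6% of all features were called and 7.97% fell. Without array 6 the difference was −0.63 ± 0.12 (adjusted p = 0.00185, limma), with 10.2% of all features called. ACTH alone gave −0.31 ± 0.12, which did not pass (adjusted p = 0.0885, limma), where 10.5% of all features were called. That difference passed in 1 of the 9 fits that left out 1 array, that without control replicate 2 (−0.46, adjusted p = 0.0116, limma).

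In the brain Dbp read −0.54, −0.41, −0.14 and −0.54 with ACTH, and −0.38, −0.53, −0.69, −1.01 and −0.58 with ACTH gratified. The control arrays read −0.39, −0.04, 0.47 and 0.36. All 9 arrays of mice given ACTH were negative, and the control arrays spread over both signs. Dbp fell by 0.51 ± 0.18 with ACTH (adjusted p = 0.0339, limma) and by 0.74 ± 0.17 with ACTH gratified (adjusted p = 0.00263, limma). These comparisons called 30% and 32.7% of all features, and 20.7% and 21.2% fell. The fall with ACTH was called in 3 of the 8 fits that left out 1 array: without control replicate 3 it was −0.38 (adjusted p = 0.134), without control replicate 4 −0.42 (0.106), and without ACTH replicates 1, 2 and 4 −0.46 (0.0756), −0.51 (0.0553) and −0.46 (0.0868), all by limma. The fall with ACTH gratified was called in all 9.

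**Figure D1:**
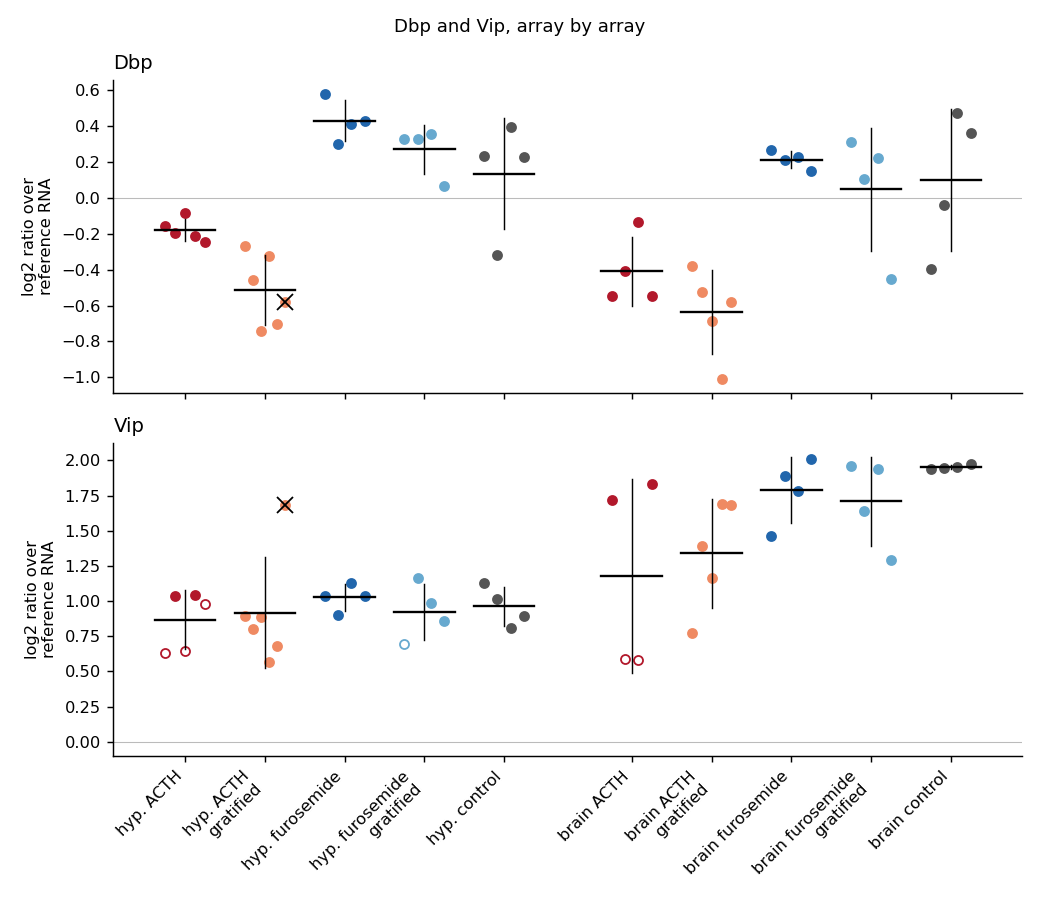
Log2 ratio over reference RNA (vertical axis) of Dbp (top) and Vip (bottom) on each of the 44 arrays, by group along the horizontal axis (hyp., hypothalamus). Filled points are untied values, open points tied ones, lines the group mean and vertical bars 1 SD, and the cross marks array 6 of hypothalamus ACTH gratified; all ACTH arrays lie below 0 for Dbp, and the 4 brain control arrays lie between 1.94 and 1.98 for Vip.

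No fall of Dbp was called with furosemide. The hypothalamus furosemide arrays read 0.58, 0.30, 0.41 and 0.43, and the difference from control was 0.29 ± 0.12 (adjusted p = 0.737, limma). Brain furosemide arrays read 0.27, 0.21, 0.23 and 0.15, and differed from control by 0.11 ± 0.18 (adjusted p = 0.836). The furosemide gratified arrays read 0.33, 0.33, 0.35 and 0.07 in the hypothalamus and 0.31, 0.11, 0.22 and −0.45 in the brain. They differed from control by 0.14 ± 0.12 in the hypothalamus (adjusted p = 1, limma) and by −0.052 ± 0.18 in the brain (adjusted p = 0.907). None of the 5 features was called by limma for furosemide against control, where 0.0209% of all features were called in the hypothalamus and 0.0942% in the brain, or for furosemide gratified, where 0% were. At an unadjusted p under 0.05 each of these 4 comparisons had 1 of the 5: Dbp and Per3 in the hypothalamus, and PER2g-s2 for both in the brain.

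Set against furosemide, ACTH gave the lower Dbp level in every comparison. The hypothalamus difference was −0.61 ± 0.12 without gratification (adjusted p = 0.00126, limma) and −0.78 ± 0.11 with it (adjusted p = 0.000119), and in both the groups did not overlap. Of all features 22.7% and 16.1% were called, 13.4% and 10.7% fell, and 21% and 6.26% were lower without overlap. Without array 6 the gratified difference was −0.77 ± 0.12 (adjusted p = 0.000343), with 13.5% of features called. The brain differences were −0.62 ± 0.18 (adjusted p = 0.0228) and −0.68 ± 0.17 (adjusted p = 0.015), where 16.1% and 9.88% of features were called, and 10.9% and 6.52% fell. The first was lost without ACTH replicate 4 (−0.58, adjusted p = 0.0669) and furosemide replicates 2 and 3 (−0.62 in both, adjusted p = 0.0508 and 0.0542), and the second without furosemide gratified replicates 1 and 3 (−0.60 and −0.62, adjusted p = 0.0549 and 0.0566). Brain ACTH and furosemide arrays did not overlap, as for 19.4% of all features that were lower with ACTH, and 1 furosemide gratified array at −0.45 lay among the brain ACTH gratified arrays.

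Gratification is the comparison within a single number series for ACTH. Every hypothalamus ACTH gratified array lay below every ACTH array for Dbp, a pattern that 0.335% of all features showed. The difference was −0.34 ± 0.11, and it did not pass over all features (adjusted p = 0.386, limma), where 0.0105% of features were called. Without array 6 it was −0.32 ± 0.11 (adjusted p = 0.455), the groups still not overlapping. The brain difference was −0.23 ± 0.17 (adjusted p = 0.901), with 0.0628% of features called. Furosemide gratified minus furosemide was −0.16 ± 0.12 in the hypothalamus and −0.17 ± 0.18 in the brain, and neither passed, where 0.0105% and 0% of all features were called. None of the 5 features was called by limma for gratification after either agent in either tissue, nor for the difference between agents, where 0% of all features were called in the hypothalamus and 0.0105% in the brain. A fit with a term for number series called Per3 in both hypothalamus cases: furosemide gratified minus furosemide was 2.00 ± 0.20 (adjusted p = 1.68e-06, limma), and gratification after ACTH minus that after furosemide was −2.12 (adjusted p = 2.75e-05). These values rest on the 2 high Per3 arrays described below. Without that term, at an unadjusted p under 0.05 stood Dbp after ACTH, and Per3 after furosemide and between agents, all in the hypothalamus.

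The order of the Dbp group means began with hypothalamus furosemide at 0.43 ± 0.11 (SD, n = 4), hypothalamus furosemide gratified at 0.27 ± 0.13 and brain furosemide at 0.21 ± 0.05. Hypothalamus control (0.13 ± 0.31), brain control (0.10 ± 0.40) and brain furosemide gratified (0.05 ± 0.34) followed. The lowest were hypothalamus ACTH (−0.18 ± 0.06), brain ACTH (−0.41 ± 0.19), hypothalamus ACTH gratified (−0.51 ± 0.20) and brain ACTH gratified (−0.64 ± 0.23). Each group overlapped its neighbour in this order. No tissue difference of Dbp was called within any treatment; with furosemide the hypothalamus arrays all lay above the brain arrays, as for 14.3% of all features, at 0.22 ± 0.15 (adjusted p = 0.574, limma). Nor was the effect of ACTH shown to differ between tissues: that difference was 0.19 ± 0.21 (adjusted p = 0.846), and for ACTH gratified 0.09 ± 0.20 (adjusted p = 0.894), or 0.10 without array 6 (adjusted p = 0.866). In both, 0% of all features were called.

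Vip differed between tissues. Among control mice it was lower in the hypothalamus, at 1.13, 1.02, 0.81 and 0.90, than in the brain, at 1.94, 1.94, 1.95 and 1.98. The groups did not overlap, as for 6.43% of all features that were lower in the hypothalamus. The difference was −0.99 ± 0.22 (adjusted p = 0.00498, limma), a hypothalamus ratio 0.504 of that in the brain, where 2.82% of all features were called and 1.75% were lower. Control hypothalamus and control brain arrays carry different number series, and a fit with a term for the series gave −0.84 (adjusted p = 0.447).

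The same tissue order was measured in the other treatments, with smaller differences. Furosemide gave 1.04, 0.90, 1.13 and 1.03 in the hypothalamus and 1.46, 1.89, 1.78 and 2.01 in the brain, a difference of −0.76 ± 0.22 (adjusted p = 0.0503, limma). Furosemide gratified gave 0.69, 1.16, 0.99 and 0.86 in the hypothalamus and 1.96, 1.64, 1.94 and 1.29 in the brain, a difference of −0.78 ± 0.22 (adjusted p = 0.0535). In neither treatment did the tissues overlap, as for 6.11% and 2.26% of all features that were lower in the hypothalamus. Without array 6 in the shared fit both passed, at adjusted p = 0.0267 and 0.029 (limma). Of the fits that left out 1 array of the groups compared, each difference passed in 1 alone. These were the fits without brain furosemide replicate 1 (−0.87, adjusted p = 0.0395) and without brain furosemide gratified replicate 4 (−0.92, adjusted p = 0.0195). These comparisons called 2.47% and 1.63% of all features. Hypothalamus and brain furosemide arrays carry different number series, as the control arrays do. With a term for the series Vip was not called between the furosemide tissues, where 32 features were called, against 236 without the term. In the 2-digit arrays, hypothalamus replicates 3 and 4 and brain replicates 2 to 4, the furosemide gratified difference was −0.70 (adjusted p = 0.0629, limma). In the zero-padded arrays it was −1.03, from hypothalamus replicates 1 and 2 and brain replicate 1 alone.

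Under ACTH the tissues overlapped. The hypothalamus read 0.63, 1.03, 0.65, 1.05 and 0.98, and the brain 1.72, 0.59, 0.58 and 1.83, a difference of −0.31 ± 0.21 (adjusted p = 0.628, limma; 1.22% of features called). The ACTH gratified arrays of the hypothalamus ranged from 0.57 through a median of 0.84 to 1.68, and those of the brain read 0.77, 1.39, 1.16, 1.69 and 1.68. The highest of these hypothalamus values, 1.68, was array 6, and the other 5 lay between 0.57 and 0.89. The tissue difference was −0.42 ± 0.19 with array 6 (adjusted p = 0.343; 0.555% of features called) and −0.57 ± 0.18 without it (adjusted p = 0.0953; 1.59%).

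In the brain Vip averaged 1.18 ± 0.69 with ACTH (SD, n = 4) and 1.34 ± 0.39 with ACTH gratified (n = 5), against 1.95 ± 0.02 in control (n = 4). It fell with ACTH by 0.77 ± 0.25 (adjusted p = 0.0256, limma), to 0.585 of the control ratio, and all ACTH arrays lay below all control arrays, as for 19.9% of all features. That fall rested on ACTH replicates 2 and 3, which read 0.59 and 0.58 and were both tied. Without the tied arrays the difference was −0.18 (adjusted p = 0.572). It was −0.58 without replicate 2 (adjusted p = 0.0905) and −0.57 without replicate 3 (adjusted p = 0.0981), and without control replicates 3 and 4 it was −0.77 in both fits (adjusted p = 0.0569 and 0.0532). ACTH gratified gave −0.61 ± 0.24 (adjusted p = 0.0541), with all 5 arrays untied and below every control array, as for 17.5% of all features. That difference passed in 2 of the 9 fits that left out 1 array. These were the fits without ACTH gratified replicate 4 or 5, at −0.70 in both (adjusted p = 0.0422 and 0.0423, limma).

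In the hypothalamus Vip was not called with ACTH: the difference from control was −0.09 ± 0.16 (95% interval −0.42 to 0.23) for ACTH and −0.04 ± 0.15 for ACTH gratified, or −0.20 ± 0.11 without array 6 (adjusted p = 0.26). The effect of ACTH was not shown to differ between tissues, at 0.68 ± 0.30 (adjusted p = 0.676, limma), hypothalamus minus brain. Brain furosemide and furosemide gratified differed from control by −0.17 ± 0.25 and −0.24 ± 0.25, and neither passed.

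Some other markers of cortical interneurons were also lower in the brain. Of 12 further features of that list, which holds Sst, Npy, Cck and Gad1, 5 fell and none rose with ACTH, where 20.7% of all features fell. With ACTH gratified 4 of the 12 fell, where 21.2% of all features did, so that most of the 12 were not called in either. The median of the 12 was −0.38 with ACTH and −0.31 with ACTH gratified, and the median over all features was −0.04 in both. The array means of the 12 ran from 0.63 to 1.15 with ACTH, 0.85 to 1.08 with ACTH gratified and 1.16 to 1.42 in control. Their part in the Vip result was not tested. None of the 12 was called between control hypothalamus and control brain: Npy differed by −0.56 (adjusted p = 0.187), Sst by −0.10 (adjusted p = 0.915) and Gad1 by −0.03 (adjusted p = 0.956), all by limma.

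**Figure D2:**
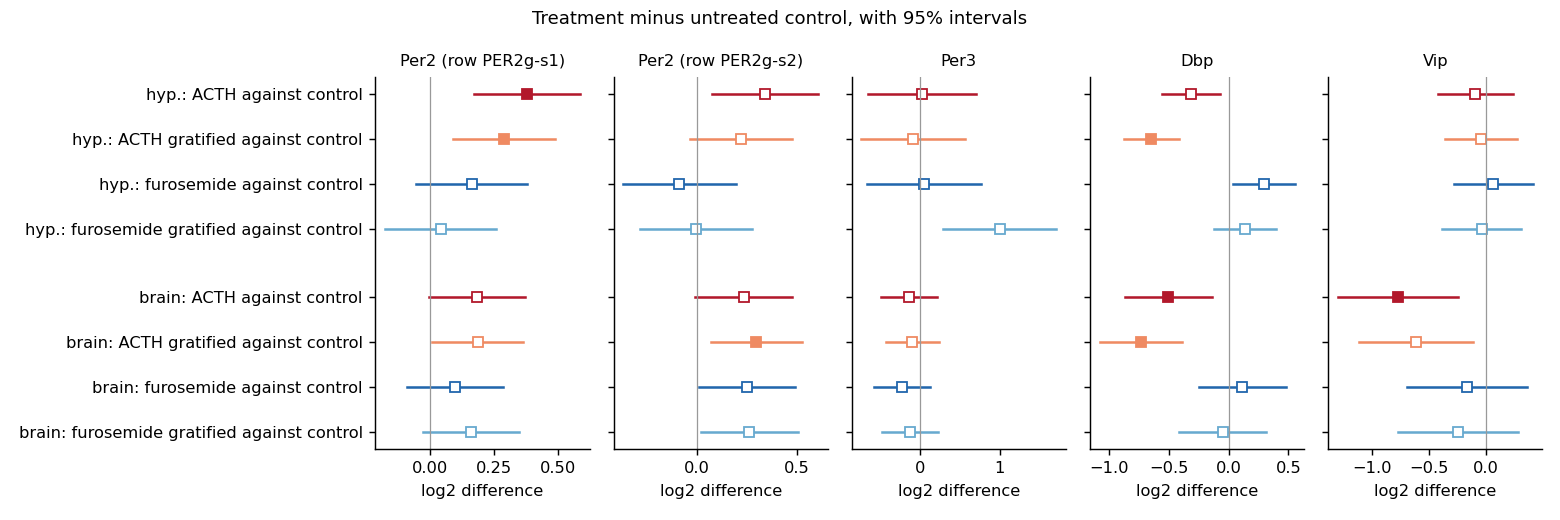
Difference of each treatment from untreated control (log2, horizontal axis) for the 5 features, hypothalamus above brain. Squares are limma differences, bars 95% intervals, and filled squares passed an adjusted p of 0.05; Dbp has 3 filled squares, all below 0, and no furosemide square is filled.

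Both features of Per2 had higher means with ACTH than in control, and the tests were passed in part. Against control, with hypothalamus ACTH, 51.0% of called rises were tied on most ACTH arrays, against 1.22% of called falls and 19.6% of all features. With brain ACTH gratified these shares were 65.8%, 1.68% and 21.8%. PER2g-s1 was tied on 10 of the 20 high-number arrays and 2 of the other 24, and PER2g-s2 on 19 and 12. The part of ties in the Per2 results was not tested. PER2g-s1 in the hypothalamus read 0.09, 0.18, 0.19, 0.31 and 0.10 with ACTH, and −0.12, −0.17, −0.14 and −0.39 in control. Every ACTH array lay above every control array, as for 7.87% of all features. The feature rose by 0.38 ± 0.10 (adjusted p = 0.0186, limma), or 1.3-fold, where 4.49% of all features rose. Without control replicate 4 it was 0.32 (adjusted p = 0.0548). On 4 of the 5 ACTH arrays its value was tied, against none of the control arrays. Without tied arrays only replicate 3 was left in the ACTH group, and the difference from control was 0.40.

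With ACTH gratified PER2g-s1 ranged in the hypothalamus from −0.14 through a median of 0.06 to 0.35. Its difference from control was 0.29 ± 0.10 (adjusted p = 0.0495, limma), where 4.67% of all features rose, and 0.31 ± 0.10 without array 6 (adjusted p = 0.0522). It passed in 1 of the 10 fits that left out 1 array, that without ACTH gratified replicate 4 (adjusted p = 0.0108). The other 9 gave 0.23 to 0.32, the lowest without control replicate 4 (adjusted p = 0.151). In the brain the feature gave 0.20, 0.22, −0.05 and 0.27 with ACTH and 0.22, 0.15, 0.21, 0.05 and 0.20 with ACTH gratified, against −0.03, 0.13, −0.04 and −0.15 in control. These groups overlapped, and the differences of 0.18 ± 0.09 and 0.19 ± 0.09 did not pass (adjusted p = 0.129 and 0.0971). The first passed in 1 of the 8 fits that left out 1 array, that without ACTH replicate 3 (0.25, adjusted p = 0.0488, limma). The second passed in 1 of 9, that without control replicate 2 (0.24, adjusted p = 0.047).

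PER2g-s2 read 0.56, 0.56, 0.66, 0.49 and 0.46 in the hypothalamus with ACTH, 0.02, 0.43, −0.08 and 0.12 with furosemide, and 0.05, −0.08, 0.28 and 0.59 in control. It was higher with ACTH than with furosemide by 0.43 ± 0.13 (adjusted p = 0.0211, limma), without overlap, as for 12.1% of all features, where 9.27% rose. Without furosemide replicate 1 or 3 it was 0.39 or 0.36 (adjusted p = 0.0652 and 0.0803). Against control the difference of 0.34 ± 0.13 did not pass (adjusted p = 0.0896, limma). It passed in 1 of the 9 fits that left out 1 array, that without control replicate 4 (0.47, adjusted p = 0.0204). All 5 of these ACTH values were tied, and none of the furosemide values was.

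In the brain PER2g-s2 rose with ACTH gratified by 0.30 ± 0.11 (adjusted p = 0.0426, limma), where 11.5% of all features rose. Its arrays read 0.54, 0.55, 0.58, 0.52 and 0.57, against 0.48, 0.47, 0.11 and −0.04 in control. The ACTH gratified values lay close together and above all control values, as for 10.5% of features, and 4 of the 5 were tied. Of the 4 control values 3 were tied too. Without tied arrays only ACTH gratified replicate 2 and control replicate 1 were left, and they differed by 0.074. Without any 1 of the 5 ACTH gratified arrays it was 0.29 to 0.31 and did not pass, and without control replicates 3 and 4 it was 0.25 (adjusted p = 0.136) and 0.20 (adjusted p = 0.183). Furosemide and furosemide gratified arrays of the brain lay in the same range, from 0.42 to 0.66 and from 0.16 to 0.73. The 2 features of Per2 correlated little over the arrays of a tissue, as deviations from group means: r was −0.13 over 23 hypothalamus arrays and 0.36 over 21 brain arrays.

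**Figure D3:**
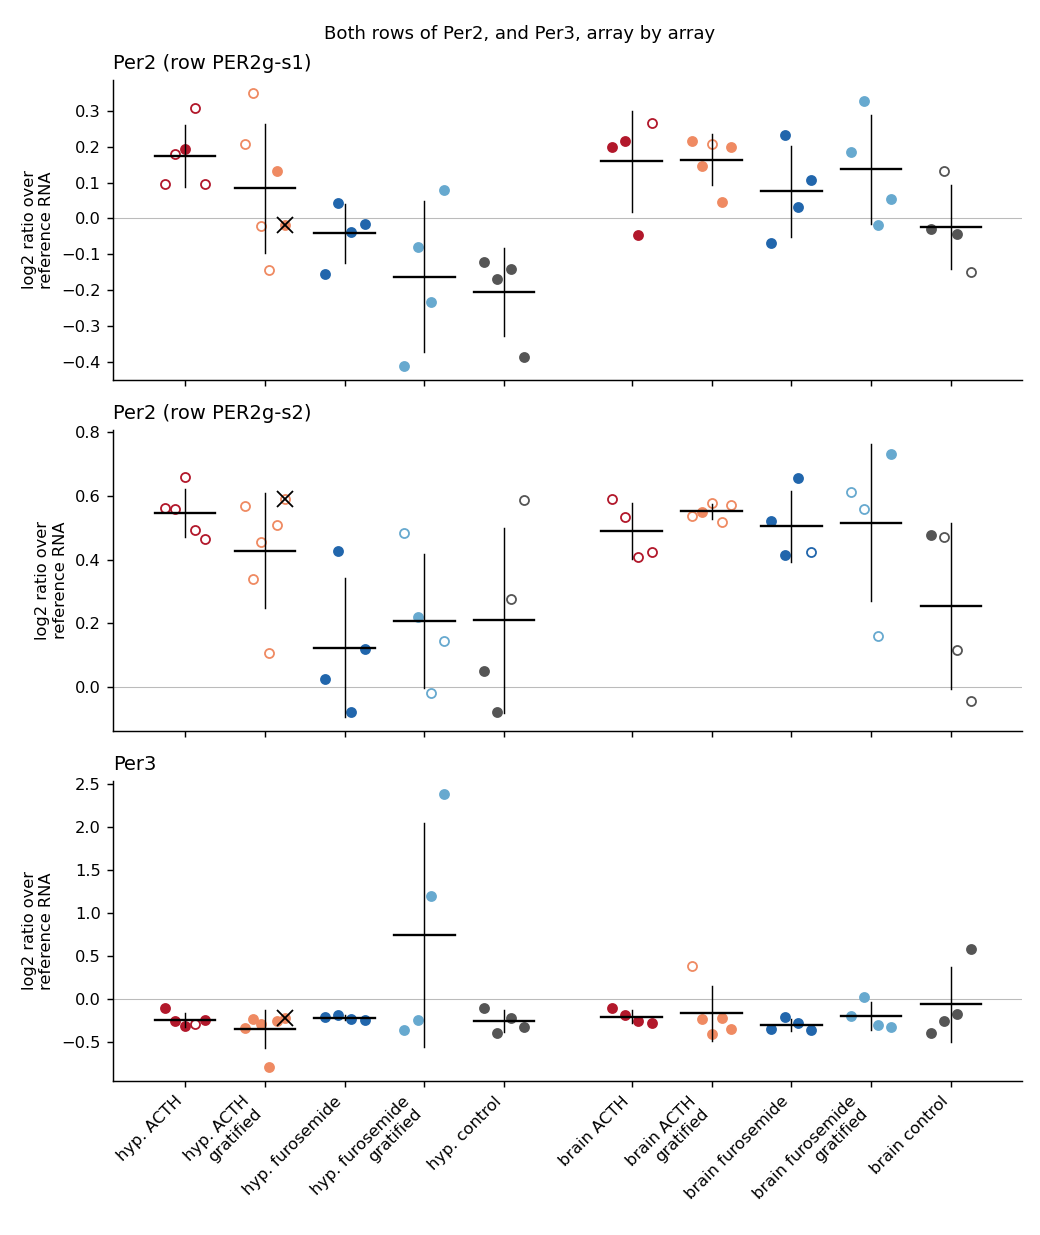
Log2 ratio over reference RNA (vertical axis) of both features of Per2 and of Per3 on each array, by group along the horizontal axis. Marks are those of the plot of Dbp and Vip; many Per2 values are open, that is tied, and 2 Per3 values, 1.20 and 2.37 in hypothalamus furosemide gratified, stand apart.

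Per3 lay in one range on nearly all arrays and far above it on 2. On 42 arrays it lay between −0.80 and 0.57, with a median of −0.25. The hypothalamus furosemide gratified arrays read −0.37, −0.25, 1.20 and 2.37. The first 2 of these carry zero-padded numbers and lie among the other groups, and the last 2, replicates 3 and 4, carry 2-digit numbers and lie above all other arrays.

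The group's difference from control was 1.00 ± 0.35 (adjusted p = 1, limma) and from furosemide 0.96 ± 0.35 (adjusted p = 1). Its difference from the brain group was 0.94 ± 0.29 (adjusted p = 0.087), and −0.10 without replicates 3 and 4 (adjusted p = 0.888). Set against furosemide gratified, ACTH gratified was lower by 1.10 ± 0.32 (adjusted p = 0.0218). That call rested on replicates 3 and 4: it was −0.94 without replicate 3 (adjusted p = 0.0919), −0.55 without replicate 4 (adjusted p = 0.0788) and −0.050 without both (adjusted p = 0.851). Without array 6 of ACTH gratified it was −1.12 (adjusted p = 0.03). In a fit with a term for number series, furosemide gratified exceeded control by 2.05 ± 0.20 (adjusted p = 1.12e-06), a fit in which only replicates 3 and 4 meet control arrays of their own series.

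Per3 was called in no comparison of ACTH with control. Its difference from control was 0.02 ± 0.33 with ACTH and −0.09 ± 0.32 with ACTH gratified in the hypothalamus, and −0.14 ± 0.17 and −0.11 ± 0.16 in the brain. Without array 6 the hypothalamus ACTH gratified difference was −0.12 ± 0.34 (adjusted p = 0.864, limma). Adjusted p ran from 0.545 to 0.977 over these 4 comparisons (limma), 3 of which called Dbp. Dbp on the 2 arrays with high Per3 read 0.35 and 0.07.

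The feature most like Per3 over the 44 arrays was Grn, which encodes progranulin. Likeness was measured by the correlation of log2 ratios minus the array median, over the 8380 features that were tied on no more than 50% of arrays. Grn had r = 0.82, and it too stood apart on replicates 3 and 4, at 0.24 and 0.46, against −1.51 to −0.79 on the other 42 arrays. Over those 42 arrays r was 0.08, so that the likeness rests on the 2 arrays. Both Grn values were tied there, while both Per3 values were not. In all, 7 features were higher on both arrays than on every other array, and 9 were lower. The gap between the lower of the 2 arrays and the highest other array was widest for Grn, at 1.04, and next for Per3, at 0.62, and the 5 other features had gaps of at most 0.20.

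**Figure D4:**
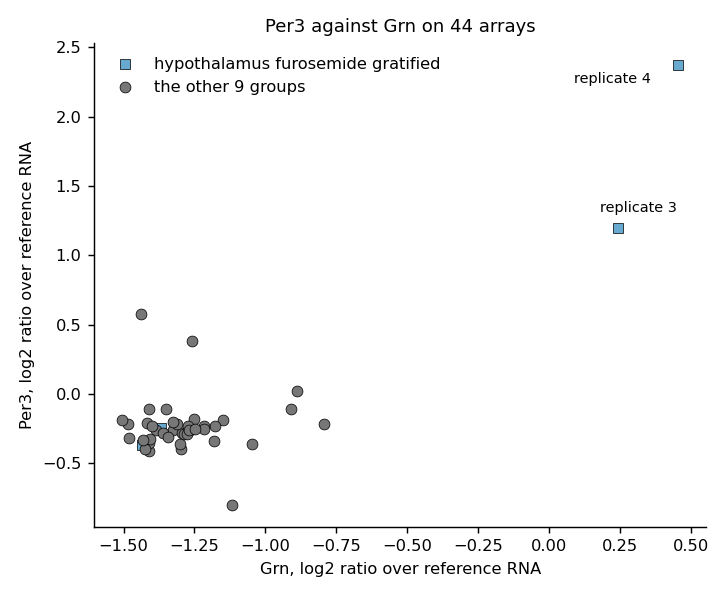
Per3 (vertical axis) against Grn (horizontal axis), both as log2 ratios over reference RNA, on the 44 arrays. Squares are the 4 hypothalamus furosemide gratified arrays and circles all others; replicates 3 and 4 lie alone at the upper right, at 1.20 and 2.37 for Per3.

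The features most like Dbp were Tst (r = 0.85), Ddhd1 (0.84), Trem2 (0.83), Sh2b1 (0.83) and Txnl4a (0.82). These r take in the differences between groups, among them that between ACTH and other arrays, which is also one between number series. With each group's mean removed, the most like were Apcdd1 (r = 0.56), Ap1s1 (0.56) and Tef (0.53), and Tef encodes another PAR bZIP factor. Usp2, the gene of a clock-controlled deubiquitinase, was 21st of the 8380 features in this order, and Nr1d1, which encodes the repressor REV-ERB alpha, was 88th. Tef, Usp2 and Nr1d1 had the highest r of the 45 features of further clock genes described below. The 45 ran down to −0.43 for a feature of Fbxl21, with Hlf at 0.08 for both features, Arntl at −0.08 and Nfil3 at −0.21. A split by number series was run for no other feature. In the 24 arrays outside the high-number series the correlation of Dbp with Tef was 0.80, with Usp2 0.76 and with Nr1d1 0.75. In the 20 high-number arrays it was 0.16, 0.06 and −0.11. All points share arrays and reference RNA, and leaving out the 2 arrays farthest in Dbp gave 0.45, 0.40 and 0.21 over all arrays.

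Vip was most like Tcf4 (r = 0.82), Dlgap1 (0.80), Fbxw7 (0.79), Prss12 (0.79) and Tbr1 (0.79). Tbr1 encodes a factor of cortical projection neurons. With group means removed, the leading features were Bcl11a (0.70), Khdrbs3 (0.68) and Sgtb (0.63), and without array 6 these were 0.63, 0.62 and 0.58. PER2g-s1 was most like Mapk11 (0.78), Aff3 (0.76) and Coro6 (0.75), and PER2g-s2 like Wdtc1, Ly6g6d and Enah, each at 0.76.

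Among the 5 features no pair correlated past the threshold within a tissue. Deviations from group means were compared for 20 pairs, 10 in each tissue. The smallest p was for PER2g-s2 and Dbp in the brain, with r = −0.58 (permutation p = 0.00587, adjusted p = 0.117) and rho = −0.51 over 21 arrays. That r was −0.20 in the high-number arrays and −0.68 in the others. Per3 and Dbp had r = 0.45 in the brain (permutation test, adjusted p = 0.251).

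A further 41 genes of the clock and its outputs were measured by 45 features. In the hypothalamus 1 rose and 6 fell with ACTH, 15.6% of them, and 2 rose and 7 fell with ACTH gratified, 20%, or 1 and 7 without array 6. The 7 falls were not the same features. Leaving out array 6 lost the rise of Wee1 (0.58, adjusted p = 0.069, limma) and the fall of Bhlhe41 (−0.35, adjusted p = 0.0565). It gained a fall of Avp (−0.42, adjusted p = 0.0209, limma). In the brain 2 rose and 8 fell with ACTH, 22.2%, and 3 rose and 11 fell with ACTH gratified, 31.1%. These shares lie beside 10.5%, 12.6%, 30% and 32.7% of all features. Falls alone were 7.97% of all features with hypothalamus ACTH gratified, 20.7% with brain ACTH and 21.2% with brain ACTH gratified. The 3 rises with ACTH gratified in the brain were all tied on most ACTH gratified arrays. None of the 45 was called by limma for furosemide or for gratification, where 2 to 9 a comparison had an unadjusted p under 0.05.

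Of the core loop, Cry1, a cryptochrome that represses with the period proteins, fell in 3 of the 4 ACTH comparisons. In the hypothalamus it differed by −0.30 ± 0.09 with ACTH (adjusted p = 0.0286, limma) and −0.36 ± 0.08 with ACTH gratified (adjusted p = 0.00676; −0.33 without array 6, adjusted p = 0.0161). In the brain it differed by −0.36 ± 0.09 with ACTH (adjusted p = 0.00499) and −0.18 ± 0.08 with ACTH gratified (adjusted p = 0.101). Cry2 and Arntl fell with ACTH gratified in the brain, by 0.31 ± 0.11 (adjusted p = 0.0352) and 0.25 ± 0.09 (adjusted p = 0.044). Per1, Clock and Nr1d1 passed in none of the 4. Their differences ran from 0.03 to 0.12 for Per1, from −0.15 to −0.03 for Clock and from −0.20 to −0.04 for Nr1d1. Without array 6 the hypothalamus ACTH gratified difference was 0.11 for Per1, −0.089 for Clock and −0.28 for Nr1d1, none called. Rorb, which encodes a nuclear receptor that activates Arntl, fell in all 4, by 0.32 to 0.46, and was tied on 3 arrays of each ACTH group; without array 6 it was −0.44 with hypothalamus ACTH gratified (adjusted p = 0.0155, limma).

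Several kinases that act on the period proteins were among the falls. In the brain 20.7% of all features fell with ACTH and 21.2% with ACTH gratified, and in the hypothalamus 7.97% fell with ACTH gratified. Csnk2a1, the catalytic subunit of casein kinase 2, fell in all 4 comparisons, by 0.39 to 0.62, and Gsk3b by 0.40 to 0.43. Csnk1e, casein kinase 1 epsilon, fell in 3, by 0.58 ± 0.08 with ACTH gratified in the brain (adjusted p = 6.36e-05, limma). Of the 2 features of Csnk1d, casein kinase 1 delta, CSNK1Dg-s1 rose in the hypothalamus, by 0.29 ± 0.07 with ACTH (adjusted p = 0.00803) and 0.33 ± 0.06 with ACTH gratified (adjusted p = 0.0013). The other feature did not pass, at 0.05 and 0.07. Without array 6 the hypothalamus ACTH gratified differences were −0.39 for Csnk2a1 (adjusted p = 0.0021, limma), −0.44 for Gsk3b (adjusted p = 0.00353), −0.47 for Csnk1e (adjusted p = 0.002), 0.35 for CSNK1Dg-s1 (adjusted p = 0.00201) and 0.10 for the other Csnk1d feature (adjusted p = 0.518). Btrc, the ubiquitin ligase subunit that recognises phosphorylated period proteins, fell in the brain by 0.57 ± 0.13 with ACTH (adjusted p = 0.00295) and 0.54 ± 0.12 with ACTH gratified (adjusted p = 0.00251).

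Among the relatives of Dbp, Tef, both features of Hlf and the repressor Nfil3 passed in none of the 4 ACTH comparisons. Tef differed by −0.01, −0.04, −0.15 and −0.23, and Nfil3 by 0.35, 0.34, 0.19 and −0.07, in the order hypothalamus ACTH, hypothalamus ACTH gratified, brain ACTH and brain ACTH gratified. Without array 6 the hypothalamus ACTH gratified values were 0.015 for Tef and 0.31 for Nfil3, neither called. The 2 receptors of the Vip peptide, Vipr1 and Vipr2, passed in none either, and their features were tied on most ACTH arrays. Of the other genes of the suprachiasmatic nucleus, Zfhx3 fell in the hypothalamus by 0.45 ± 0.12 with ACTH (adjusted p = 0.0202, limma) and 0.47 ± 0.12 with ACTH gratified (adjusted p = 0.00901; −0.40 without array 6, adjusted p = 0.0194), and Rgs16 by 0.49 ± 0.14 with ACTH (adjusted p = 0.0226).

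**Figure D5:**
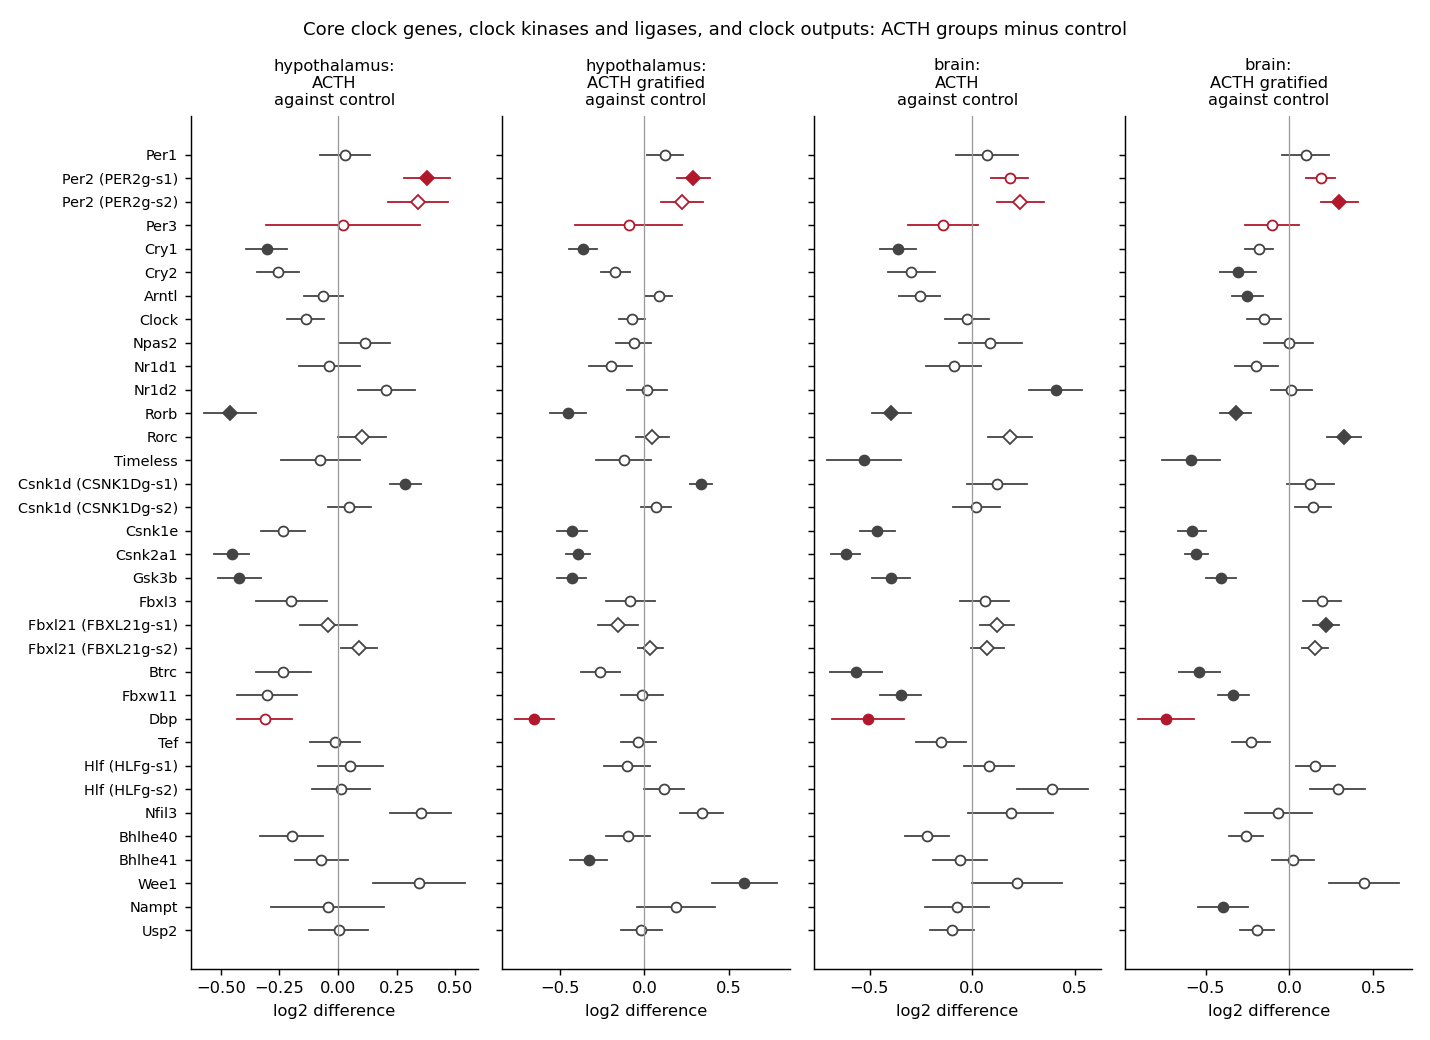
Difference from control (log2, horizontal axis) of the core clock genes, their kinases and ligases, and the PAR bZIP factors and outputs, in the 4 ACTH comparisons. Bars are 1 SE, filled marks passed an adjusted p of 0.05, diamonds mark features tied on most arrays of the ACTH group, and Per2, Per3 and Dbp are in red. Dbp, Cry1, Clock, Nr1d1, Rorb, Csnk2a1, Gsk3b and Tef are among those left of 0 in all 4 panels.

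Some markers of whole tissues and cell types were also lower with ACTH gratified in the hypothalamus, where Dbp fell. Of 14 hypothalamic marker features 7 fell and none rose, or 4 fell without array 6, and 4 of 8 astrocyte features fell with array 6 and without it. In that comparison 7.97% of all features fell with array 6, and 10.2% were called in either direction without it. Without array 6, 3 of 12 thalamic and habenular features fell and 1 rose. Of 14 cortical and hippocampal features 2 fell, as did 2 of 12 interneuron features, and none of 9 neuronal or 4 proliferation features was called. With ACTH alone none of the 14 hypothalamic features was called, and 2 of the 8 astrocyte features fell. Between the control tissues, where 2.82% of all features were called, 10 of the 14 hypothalamic features were higher in the hypothalamus and none lower. Of the 14 cortical and hippocampal features 4 were lower there. Their part in the results for Per2, Dbp and Vip was not tested.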

How the data were processed

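Tissue RNA (Cy5) was measured against a common reference RNA (Cy3) on 44 arrays in 10 groups. The deposited table holds 1 log2 ratio per feature and array, which the authors made with limma, per the submitters' processing notes. The sources used here do not give the background correction, the log base or the limma version. Scanner intensities were not used here, so signal over background is unknown, and precision rests on the number of arrays. Values were used as deposited. Differences were fitted with limma 3.58.1 in R 4.3.3 (lmFit, eBayes), with Benjamini-Hochberg adjustment over all 9554 features. Treatment comparisons were fitted within a tissue over its 5 groups, and tissue comparisons over all 44 arrays. Gene names came from RefSeq symbols (8651 features) or a unique synonym (580). Members and lists were chosen with earlier results of these data known. Genes outside the 4 were named from lists of clock genes and markers or as the features most alike, and the other genes were chosen after their values were seen. Alternatives were the groups compared alone, array medians set to 0, quantile normalization, array weights, the number series as a factor, single number series, a replicate block, tied features or arrays left out, and each array left out. Leaving out array 6, replicates 3 and 4, tied arrays or all but 1 number series was chosen after seeing the data. The fit was tested on simulated data with 200 changed features. Deviations of same-numbered samples of different groups were correlated within a tissue. Mean r was 0.009 over 41 hypothalamus pairs (−0.22 to 0.16) and −0.002 over 40 brain pairs (−0.28 to 0.27). Such means cannot tell whether single pairs share an animal or batch, and pairs across tissues were not compared. Pair correlations used 100000 permutations.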

Additional observations from a re-analysis of the deposited data

Results flagged for a closer look

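In 4 of the 50 groups of 4 to 6 arrays, 1 array lay far from the others by Dixon's test at the 95% level, and chance alone flags about 1 group in 20. Vip read 1.68 on array 6 of hypothalamus ACTH gratified, the array with hypothalamic peptide levels in the brain range. Per3 read −0.80 on replicate 4 of the same group, the array with the lowest mean correlation with its group (0.77). Per3 read 0.38 on replicate 1 of brain ACTH gratified, where its value was tied. Dbp read 0.068 on replicate 4 of hypothalamus furosemide gratified, which is also the array with the highest Per3.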

How the results depend on the processing

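No called difference changed sign under any alternative run. Dbp against furosemide, and with ACTH gratified against control, passed in every fit that kept all arrays. Of 121 differences not called as reported, array weights gained 13 (such as Dbp with hypothalamus ACTH, −0.32, adjusted p = 0.037, and PER2g-s2 there, 0.39, 0.0118), fitting only the groups compared 4 and the replicate block 2. A term for number series gained 5 of 94, all of Per3. Fitting only the groups compared, 4 calls were lost: PER2g-s1 with hypothalamus ACTH gratified (0.29, adjusted p = 0.14), Per3 between the gratified groups (−1.10, 0.145), and Dbp (−0.51, 0.068) and Vip (−0.77, 0.0662) with brain ACTH. PER2g-s1 with hypothalamus ACTH gratified was also lost with array medians at 0 (0.25), quantile normalization (0.21), the replicate block (0.32), tied arrays left out (0.26) and array 6 left out (0.31). Quantile normalization also lost PER2g-s1 with hypothalamus ACTH (0.33) and Vip with brain ACTH (−0.49), array weights lost Per3 (−0.70), and the replicate block lost PER2g-s2 with brain ACTH gratified (0.29). The number series as a factor lost Vip between control tissues (−0.84). Left-out tied arrays lost Vip with brain ACTH (−0.18). They gave 0.40 for PER2g-s1 with hypothalamus ACTH and 0.074 for PER2g-s2 with brain ACTH gratified, each with 1 array left in the ACTH or ACTH gratified group. Per3 was −0.050 without replicates 3 and 4. The causes were not tested. Leaving out each array in turn gave, for Dbp, −0.80 to −0.56 (hypothalamus ACTH gratified against control), −0.65 to −0.56 (ACTH against furosemide), −0.85 to −0.74 (gratified groups), −0.67 to −0.38 (brain ACTH against control), −0.90 to −0.61 (brain ACTH gratified against control), −0.71 to −0.58 (brain ACTH against furosemide) and −0.85 to −0.59 (brain gratified groups). It gave 0.32 to 0.41 and 0.23 to 0.33 for PER2g-s1 with hypothalamus ACTH and ACTH gratified, and 0.36 to 0.53 and 0.20 to 0.37 for PER2g-s2 (hypothalamus ACTH against furosemide, brain ACTH gratified against control). It gave −1.46 to −0.55 for Per3, −0.99 to −0.57 for Vip with brain ACTH, and −1.05 to −0.94 for Vip between control tissues. Counts over all features moved in several comparisons: for hypothalamus ACTH gratified against control the count was 1207 as reported, 498 with only those groups, 2840 with array weights and 2445 without ACTH gratified replicate 4, and between the hypothalamus gratified groups the first 3 of these were 1540, 547 and 3673. The labels do not say whether replicate numbers pair samples, and the reported fits treated samples as unpaired. Depth is unknown for these ratios.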
